A study of Mus musculus with 18 samples.

Results

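The retinoic acid pathway genes described here are *Rara*, *Rarb*, *Rarg*, *Crabp1*, *Crabp2*, *Rdh10*, *Dhrs3*, *Aldh1a2* and *Cyp26a1*. They were chosen by name, as 9 of the 35773 genes counted in RNA-seq of mouse pluripotent stem cells, and were followed across 6 culture states. Every one of the 9 was counted often enough to be tested, although *Cyp26a1* met the minimum of 10 counts in 3 samples through its EpiSC samples alone and *Rarb* through its EpiLC and EpiSC samples.

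The 18 samples were 3 biological replicates of each state. ESCs were naive embryonic stem cells in 2i/LIF (inhibitors of MEK and GSK3 with leukemia inhibitory factor). AFSCs were primed stem cells that had been derived from blastocysts in activin A and FGF2. ASCs, advanced pluripotent stem cells, arose from AFSCs in ABCL medium, which holds activin A, BMP4, the Wnt pathway agonist CHIR99021 and LIF. ESC-ASCs were made from the 2i/LIF ESCs in the same ABCL medium. EpiLCs (epiblast-like cells) and EpiSCs (epiblast stem cells) represented the formative and the primed epiblast. All libraries are labelled wild type and 129S2/SvPasCrl, with no deletion or added transgene named in the labels. The methods of the study describe the ASCs as outgrowths of colonies positive for a GOF-GFP reporter, on a mixed strain background, so the ASC samples descend from a selected fraction of AFSCs. The samples of a group are cultures. The methods name several AFSC and ESC lines, and which of them each library came from was not given in the sources used here.

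Retinoic acid is made from retinol in a pair of steps: retinol dehydrogenases such as RDH10 form retinal, and retinal dehydrogenases such as ALDH1A2 oxidize it to retinoic acid. DHRS3 returns retinal to retinol, and CYP26 enzymes such as CYP26A1 oxidize retinoic acid for removal. Inside the cell the acid is carried by CRABP1 and CRABP2 and acts through the nuclear receptors RARα, RARβ and RARγ, which pair with RXR on DNA elements built from direct repeats of a short motif. The pathway is known for patterning the embryo after gastrulation and for driving the exit from pluripotency in cultured stem cells, and *Rarb*, *Cyp26a1* and *Dhrs3* are among its textbook target genes.

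Libraries held 4961934 to 9906473 counted fragments, apart from the 3 ESC-ASC libraries, which held 17813619 to 18071600. Levels below are normalized read counts per kb of exon, so that genes can be compared per length. The labelled states were checked with 5 naive markers (*Esrrb*, *Tfcp2l1*, *Klf4*, *Tbx3*, *Prdm14*), whose summed level was 1953 to 2917 in ESC, ASC and ESC-ASC samples and 9.02 to 27.6 in the other states. Markers of other cells also differed between states. A list of 6 fibroblast markers summed to 20.9 to 92.8 in ESC, ASC, EpiLC and AFSC samples but to 1.27 to 1.84 in ESC-ASC and 2.19 to 3.90 in EpiSC samples, where *Lum* was at 0 throughout. The list did not move as a whole: *Col1a1* made up most of the ASC sums (45.6 to 75.5) and *Dcn* most of the EpiLC sums (54.4 to 79.8). A list of 7 endoderm markers reached 219 to 234 in EpiSC samples and 92.1 to 115 in AFSC samples, against 11.6 to 26.4 elsewhere. *Foxa2* made up most of the EpiSC and AFSC sums (148 to 163 and 82.5 to 99.4). *Gata6*, *Sox17* and *Pdgfra* were also highest in EpiSC samples, whereas *Gata4*, *Sox7* and *Dab2* had their highest means in other states. The 3 neural markers reached 216 to 299 in AFSC and 167 to 192 in EpiSC samples. Nearly all of this was *Nes* (212 to 294 and 166 to 190), while *Sox1* and *Pax6* had their highest means in EpiLC samples. Trophoblast markers (4 genes) summed to 243 to 388 in ESC, ASC and ESC-ASC samples and to 22.3 to 38.9 in the others. Of these, *Tfap2c* was at 134 to 290 in the former and 11.3 to 16.5 in the latter. *Cdx2* was at 41.0 to 112 in ESC and ASC samples but at 0.889 or less in ESC-ASC samples, where *Ascl2* was highest (135 to 146). *Elf5* was at most 0.447 in any sample, so these lists did not move as a whole either. The part of such cells in the results below was not tested, and in these bulk samples fewer expressing cells and less RNA per cell cannot be told apart.

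Retinoic acid receptors bind direct repeats of hexamers such as AGGTCA. This hexamer and its forms with G as the first base, T as the third base or both were searched as direct repeats on both strands, at spacings of 1, 2 or 5 bases, in RefSeq promoter windows of 250 bases before to 50 after each start site (GRCm38.p6). Of the 9 genes, 7 had a window there (*Crabp2* and *Rdh10* did not). *Rarb* and *Cyp26a1* were the 2 with a match, each a repeat spaced by 5 bases, which 0.0974% of all 32851 windows hold (0.588% hold a repeat at any of the spacings). Both sequences are shown because these genes had the fewest counts in ESCs and were called higher in EpiLCs and EpiSCs. Capitals mark the repeat, and each run is the 250 bases upstream of the start site on the strand of the gene.

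*Rarb*, chr14:16575477-16575726, minus strand: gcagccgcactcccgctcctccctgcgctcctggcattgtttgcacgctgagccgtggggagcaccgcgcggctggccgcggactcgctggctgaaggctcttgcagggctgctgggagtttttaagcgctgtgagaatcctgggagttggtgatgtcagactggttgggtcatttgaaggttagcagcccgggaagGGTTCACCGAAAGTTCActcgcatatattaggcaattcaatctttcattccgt
*Cyp26a1*, chr19:37697558-37697807, plus strand: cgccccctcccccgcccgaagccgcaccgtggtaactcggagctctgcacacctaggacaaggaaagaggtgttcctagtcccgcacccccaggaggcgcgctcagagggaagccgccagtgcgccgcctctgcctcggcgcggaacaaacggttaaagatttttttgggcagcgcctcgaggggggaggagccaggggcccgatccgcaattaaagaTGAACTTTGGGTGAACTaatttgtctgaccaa

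The *Rarb* repeat, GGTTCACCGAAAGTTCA, lies in the gene's own direction at chr14:16575513-16575529, with 36 bases between it and the start site. In *Cyp26a1* the repeat is on the opposite strand, where it reads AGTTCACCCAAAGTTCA, at chr19:37697776-37697792, with 15 bases between it and the start site. Whether a receptor occupies either repeat in these cells was not measured. Among 31 other retinoid genes, 22 had a window and 1 of them, *Bco1*, held a repeat, spaced by 1 base.

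**Figure D1:**
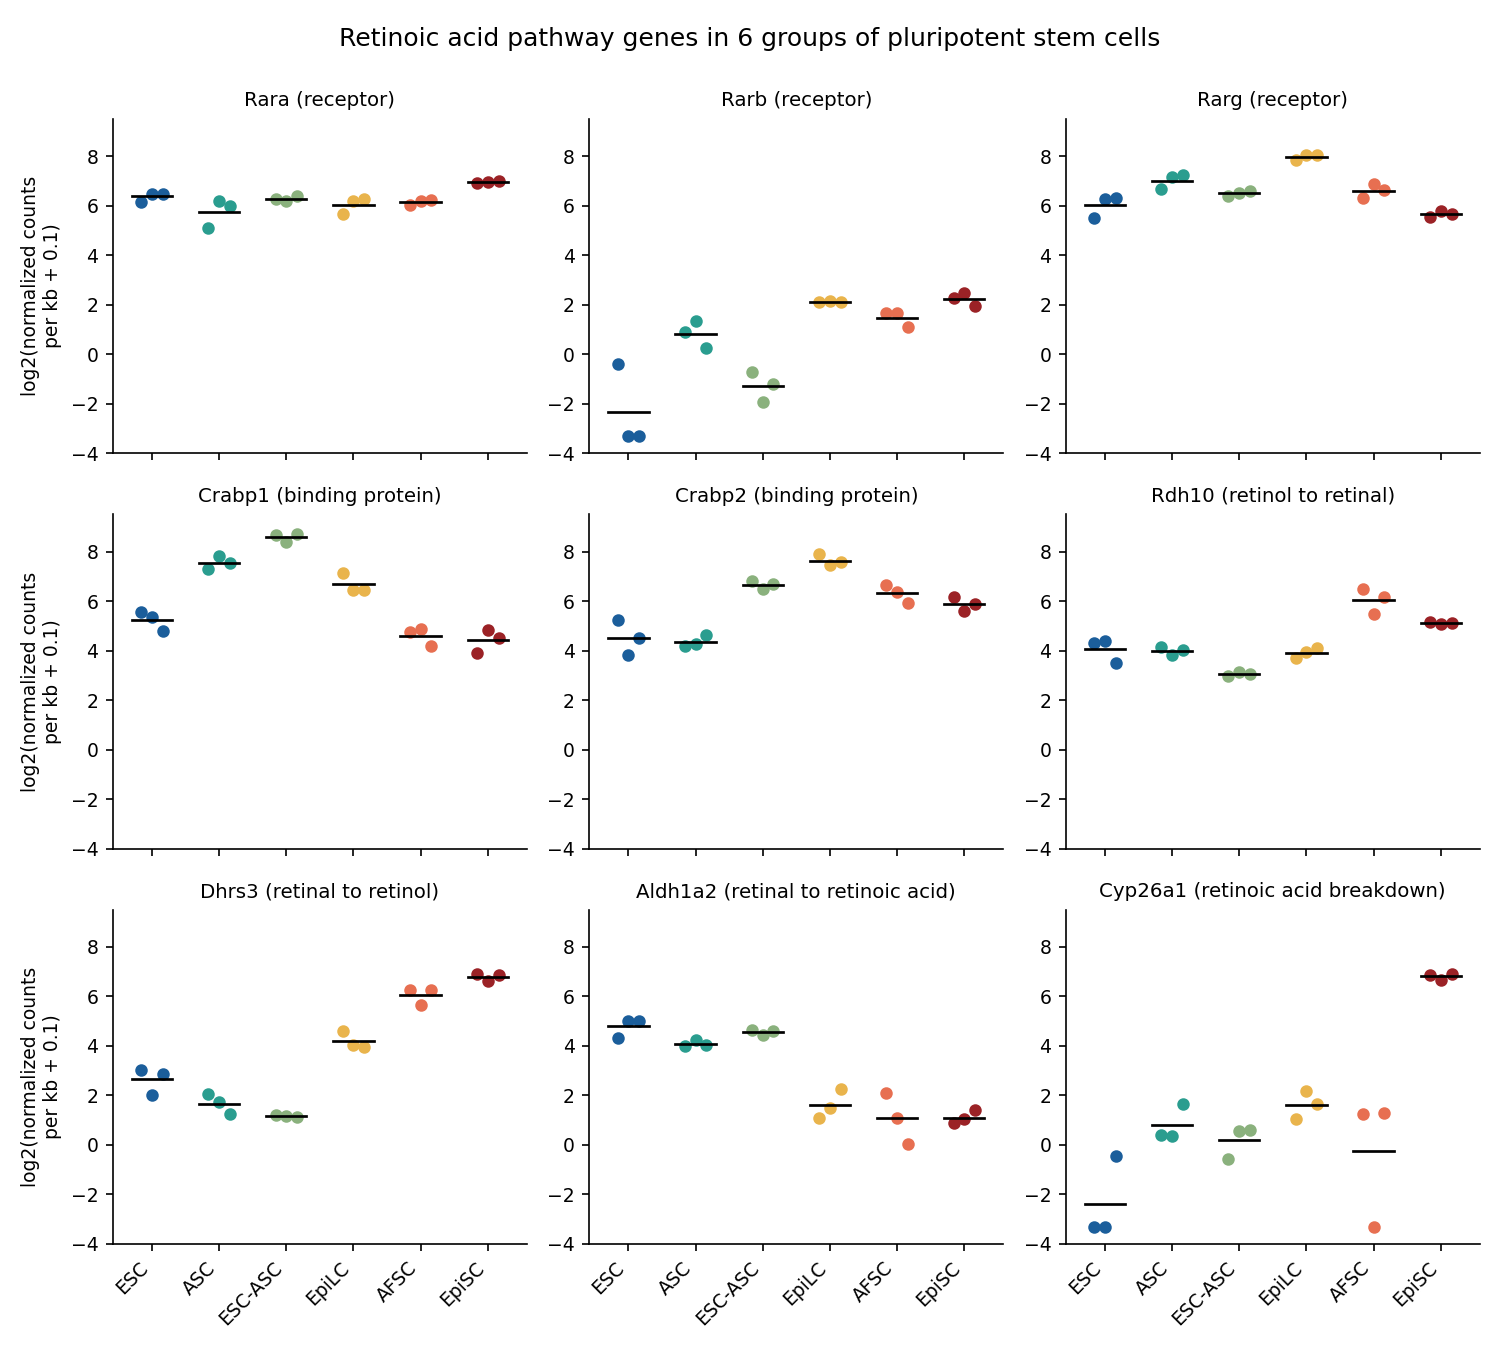
Levels of the 9 genes in every sample, as log2 of normalized counts per kb plus 0.1 (vertical axis), by state (horizontal axis). Points are replicates 1 to 3 from left to right and bars are means of the logged values. *Cyp26a1* is near the bottom of the scale in every state but EpiSC (102 to 120 normalized counts per kb), while *Aldh1a2* is high in ESC, ASC and ESC-ASC (15.7 to 32.5) and low in the other states (0.915 to 4.73).

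*Rara* (chr11:98927818-98974942) encodes RARα and was expressed in every state. Its level was 71.7, 88.0 and 89.2 in the ESC samples, 34.1, 72.8 and 64.1 in ASC, 76.2, 72.7 and 82.9 in ESC-ASC, 50.8, 73.2 and 76.7 in EpiLC, 65.7, 72.9 and 74.0 in AFSC and 121, 125 and 129 in EpiSC samples. The EpiSC samples stood above all other samples, whose groups overlapped one another. None of the 8 comparisons of the design reached 2-fold for *Rara*. Between the highest and the lowest state, EpiSC and ASC, the difference was 2.21-fold (log2 fold change 1.14 ± 0.20 SE, adjusted p = 6.9e-05, where 42.4% of all genes were called). EpiSCs were 1.84-fold above EpiLCs (log2 fold change 0.88 ± 0.20 SE, edgeR adjusted p = 0.00123) and 1.49-fold above ESCs (adjusted p = 0.0188). The order below EpiSC, namely ESC, ESC-ASC, AFSC, EpiLC and ASC, separated no pair of neighbours, with adjusted p of 0.279 to 0.777, and by TPM only 2 of the 6 places were the same.

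*Rarg* (chr15:102234938-102257517, minus strand) encodes RARγ and peaked in EpiLCs. Its level was 44.6, 76.8 and 78.2 in ESC, 101, 142 and 150 in ASC, 84.9, 90.6 and 96.7 in ESC-ASC, 228, 262 and 267 in EpiLC, 79.0, 119 and 98.3 in AFSC and 46.3, 55.1 and 51.1 in EpiSC samples. The EpiLC samples stood clear of all others, and EpiSC samples overlapped ESC samples at the bottom. *Rarg* rose 3.76-fold from ESCs to EpiLCs (log2 fold change 1.91 ± 0.20 SE, adjusted p = 1.3e-07) and was 5.0-fold lower in EpiSCs than in EpiLCs (log2 fold change -2.32 ± 0.20 SE, adjusted p = 1.55e-08). ASCs were 1.91-fold above ESCs, with no overlap between samples and an adjusted p of 0.000718, short of the 2-fold required for a call. Replicate 1 was the lowest of its group for *Rarg* in all 6 states and for *Rara* in 5 of them (not in ESC-ASC), whereas for *Dhrs3* it was the lowest in 0. Between the top and the bottom of the order, ASC, AFSC, ESC-ASC, ESC and EpiSC followed one another with adjusted p of 0.0748 to 0.526 for neighbours.

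*Rarb* (chr14:16430842-16575472, minus strand) encodes RARβ and was close to the limit of detection. The 3 ESC samples held 1, 0 and 0 counts, and the ESC-ASC samples, although deeper, held 3, 1 and 2. ASC samples held 5, 7 and 3 counts, AFSC samples 7, 8 and 6, EpiLC samples 11, 15 and 12 and EpiSC samples 11, 19 and 12. Per kb these were 0 to 0.649 in ESC, 0.161 to 0.500 in ESC-ASC, 1.08 to 2.40 in ASC, 2.05 to 3.11 in AFSC, 4.19 to 4.37 in EpiLC and 3.78 to 5.52 in EpiSC samples. The gene was thus lowest in the ESC and ESC-ASC samples, and no sample of either reached the lowest sample of any other state. Depth-adjusted ratios to the single ESC count were 29.4 for EpiLC (95% exact interval 4.96 to 1189), 32.3 for EpiSC (5.49 to 1305), 18.5 for AFSC (2.97 to 764) and 12.1 for ASC (1.86 to 510.2), intervals that cover counting error only. *Rarb* was called in EpiLC (edgeR adjusted p = 1.81e-05), EpiSC (8.14e-06) and ASC (0.00336) against ESC. It met the minimum count for testing only through its EpiLC and EpiSC samples. It was also 4.88-fold lower in ESC-ASCs than in ASCs (log2 fold change -2.29 ± 0.55 SE, adjusted p = 0.00215), so the ABCL states differed from each other in this receptor.

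Seen as shares of the 3 receptor genes per kb, the make-up turned over between states. *Rara* took 56.0% ± 4.61 (SD, n = 3) in ESC samples, 45.9% ± 1.34 in ESC-ASC, 41.5% ± 3.59 in AFSC, 29.4% ± 4.30 in ASC, 20.5% ± 2.24 in EpiLC and 69.2% ± 1.63 in EpiSC samples. *Rarg* took most of the rest, from 28.2% ± 1.39 in EpiSC to 78.2% ± 2.10 in EpiLC samples. EpiLC and EpiSC samples were therefore at opposite ends, with *Rarg* and *Rara* in the majority, respectively. *Rarb* held at most 2.97% in any sample. The summed receptor level was highest in EpiLCs (283 to 348) and 117 to 217 elsewhere.

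**Figure D2:**
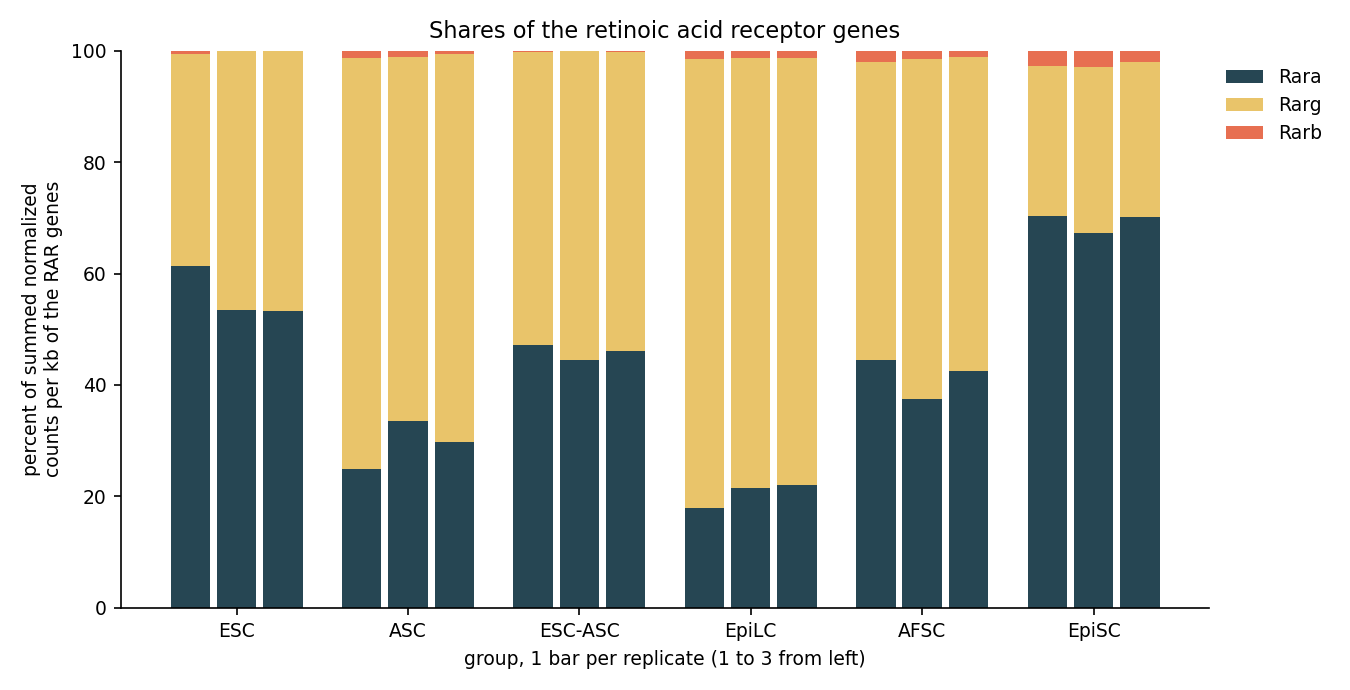
Share of *Rara*, *Rarg* and *Rarb* (percent, vertical axis) in the summed normalized counts per kb of the 3 receptor genes, 1 bar per replicate, by state. *Rarg* takes 76.7% to 80.6% of the EpiLC bars and 26.9% to 29.7% of the EpiSC bars.

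*Crabp1* (chr9:54764748-54773110) encodes a binding protein that holds retinoic acid in the cytoplasm, and it rose in ABCL medium from both starting cells. Its level was 46.6, 40.6 and 27.8 in ESC, 157, 225 and 185 in ASC, 404, 337 and 413 in ESC-ASC, 141, 86 and 86.7 in EpiLC, 26.9, 28.9 and 18.1 in AFSC and 14.7, 28.6 and 22.6 in EpiSC samples. Both ABCL groups stood above every sample of the 4 other states, and AFSC and EpiSC samples overlapped. *Crabp1* rose 10.1-fold from ESCs to ESC-ASCs (log2 fold change 3.34 ± 0.25 SE, adjusted p = 2.1e-09) and 7.58-fold from AFSCs to ASCs (2.92 ± 0.27 SE, adjusted p = 2.14e-08). It was 4.95-fold higher in ASCs than in ESCs and 2.04-fold higher in ESC-ASCs than in ASCs (adjusted p = 7.41e-07 and 0.000476), the latter call being lost when ASC replicate 1 or ESC-ASC replicate 3 was left out (log2 fold changes 0.91 and 0.99). EpiLCs were 2.78-fold above ESCs (adjusted p = 9.86e-05). Summed fibroblast markers were at 1.27 to 1.84 in ESC-ASC and 33.8 to 92.8 in ESC samples. They were at 48.1 to 81.2 in ASC and 20.9 to 39.4 in AFSC samples. The part of fibroblasts in the *Crabp1* level was not tested.

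*Crabp2* (chr3:87948666-87953376) encodes the binding protein that passes retinoic acid to the receptors, and it separated the ABCL states. Its level was 37.2, 14.1 and 22.8 in ESC, 18, 18.9 and 24.9 in ASC, 112, 88.7 and 103 in ESC-ASC, 237, 175 and 189 in EpiLC, 99.8, 82.3 and 61.1 in AFSC and 71.5, 48.0 and 59.2 in EpiSC samples. ASC and ESC samples shared the bottom of the range (adjusted p = 0.592 for the pair), and EpiLC samples stood above all others. *Crabp2* rose 4.25-fold from ESCs to ESC-ASCs (log2 fold change 2.09 ± 0.26 SE, adjusted p = 1.65e-06), whereas it was 3.98-fold lower in ASCs than in the AFSCs they came from (-1.99 ± 0.27 SE, adjusted p = 3.24e-06). The ABCL states therefore differed 4.92-fold (log2 fold change 2.30 ± 0.26 SE, adjusted p = 8.11e-07). EpiLCs were 8.53-fold above ESCs (3.09 ± 0.27 SE, adjusted p = 8.61e-09), and EpiSCs were 3.42-fold below EpiLCs and 2.50-fold above ESCs.

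The ratio of *Crabp1* to *Crabp2* per kb followed from these levels. It was 7.42 to 12 in ASC samples and 3.62 to 4.02 in ESC-ASC samples, above the 1.22 to 2.88 of ESC samples. In EpiLC, AFSC and EpiSC samples *Crabp2* was the more abundant of the pair, with ratios of 0.206 to 0.596. The ASC, ESC-ASC and ESC ranges did not overlap one another or those of the other states, in which EpiLC (0.460 to 0.596) and AFSC samples (0.269 to 0.351) were also apart and EpiSC samples spanned both.

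*Rdh10* (chr1:16105774-16133734) encodes the retinol dehydrogenase that makes retinal, and it peaked in AFSCs. Its level was 19.9, 21.0 and 11.3 in ESC, 17.4, 14.0 and 16.1 in ASC, 7.78, 8.69 and 8.22 in ESC-ASC, 13.1, 15.1 and 17 in EpiLC, 90.6, 44.5 and 71.7 in AFSC and 36.0, 33.7 and 34.2 in EpiSC samples. AFSC samples were above all others but spread widely, and ESC-ASC samples were below all others. *Rdh10* was 4.43-fold lower in ASCs than in AFSCs (log2 fold change -2.15 ± 0.24 SE, adjusted p = 2.56e-07) and 2.10-fold lower in ESC-ASCs than in ESCs (-1.07 ± 0.25 SE, adjusted p = 0.0012), the second call being lost without ESC replicate 1 or 2 (-0.99 and -0.88) and under upper quartile scaling (-0.96). It was 2.27-fold higher in EpiSCs than in EpiLCs (adjusted p = 0.000402). AFSCs and EpiSCs differed by 1.01 ± 0.22 SE on the log2 scale (adjusted p = 0.00126), at the 2-fold limit. EpiSCs and ESCs differed by 1.0 ± 0.24 SE (adjusted p = 0.00143), just short of it, and the value passed 2-fold in 12 of 26 alternative fits, among them those without ESC replicate 1 or 2 (1.08 and 1.19) and with upper quartile scaling (1.11). ESC, ASC and EpiLC samples could not be put in order (adjusted p = 0.665 and 0.896 for neighbours).

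*Dhrs3* (chr4:144892827-144928209) encodes the enzyme that reduces retinal back to retinol. Its level was 8.07, 3.98 and 7.24 in ESC, 4.05, 3.19 and 2.25 in ASC, 2.25, 2.17 and 2.06 in ESC-ASC, 24.1, 16.3 and 15.4 in EpiLC, 77.3, 50.6 and 76.8 in AFSC and 119, 99.7 and 116 in EpiSC samples. EpiSC, AFSC and EpiLC samples formed 3 separate steps above every ESC, ASC and ESC-ASC sample. The rise was 2.95-fold from ESCs to EpiLCs (log2 fold change 1.56 ± 0.28 SE, adjusted p = 8.46e-05), 5.95-fold from EpiLCs to EpiSCs (2.57 ± 0.22 SE, adjusted p = 9.69e-09) and 17.6-fold from ESCs to EpiSCs (4.14 ± 0.26 SE, adjusted p = 4.78e-11). In ABCL *Dhrs3* fell from both starts. It was 21.6-fold lower in ASCs than in AFSCs (-4.44 ± 0.27 SE, adjusted p = 9.6e-11) and 2.89-fold lower in ESC-ASCs than in ESCs (-1.53 ± 0.33 SE, adjusted p = 0.000598), the latter resting on 10 to 19 counts per ESC sample and 12 or 13 per ESC-ASC sample.

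*Aldh1a2* (chr9:71215789-71296243) encodes the dehydrogenase that forms retinoic acid. Between the naive or ABCL states and the formative or primed ones, its levels ran opposite to those of *Dhrs3*. The level of *Aldh1a2* was 20.002, 32.4 and 32.5 in ESC, 15.7, 18.8 and 16.5 in ASC, 25.0, 21.6 and 24.0 in ESC-ASC, 2.04, 2.74 and 4.73 in EpiLC, 4.16, 2.05 and 0.915 in AFSC and 1.74, 1.95 and 2.53 in EpiSC samples. Every naive or ABCL sample was above every formative or primed one, and within each of these sets the differences between neighbouring states did not pass the test (adjusted p = 0.12 to 0.923). ASCs were 1.72-fold below ESCs (adjusted p = 0.0181), short of a call. *Dhrs3* was lower in ASCs as well (1.99-fold, edgeR adjusted p = 0.026), also short of a call. *Aldh1a2* was 8.96-fold lower in EpiLCs and 13.6-fold lower in EpiSCs than in ESCs (log2 fold changes -3.16 ± 0.33 and -3.76 ± 0.35 SE, adjusted p = 1.24e-07 and 1.93e-08), and 7.27-fold higher in ASCs than in AFSCs (2.86 ± 0.37 SE, adjusted p = 2.28e-06). Over the 18 samples, its log2 level and that of *Dhrs3* had a Pearson r of -0.89, and *Dhrs3* and *Rdh10* one of 0.82. Other pairs of the 9 genes had values of like size: *Crabp1* with *Dhrs3* (-0.83) and with *Rdh10* (-0.81), and *Rarb* with *Aldh1a2* (-0.81). These coefficients describe 18 samples in 6 groups that share libraries and depth, and the group differences carry them.

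*Cyp26a1* (chr19:37697808-37701528) encodes the enzyme that breaks retinoic acid down, and EpiSCs alone expressed it well. EpiSC samples held 159, 205 and 222 counts, or 118, 102 and 120 per kb. No other sample held more than 9 counts. ESC samples held 0, 0 and 1, ASC samples 2, 2 and 5, ESC-ASC samples 2, 5 and 5, EpiLC samples 3, 9 and 5 and AFSC samples 3, 0 and 4. Every sample outside EpiSC was at 4.49 per kb or less. EpiSCs were 33.7-fold above EpiLCs (log2 fold change 5.07 ± 0.35 SE, adjusted p = 6.68e-10) and 69.9-fold above AFSCs (adjusted p = 7.4e-10). Against the single ESC count the ratio was 451 (95% exact interval 80.5 to 17824), and for EpiLCs over ESCs it was 13.1 (2.06 to 549), where the test also gave a call (adjusted p = 0.00503). With any 1 EpiSC sample left out the gene no longer met the minimum count and was not tested, so its calls as higher in EpiSCs are not independent of that filter. The states below EpiSC did not separate from their neighbours in order (adjusted p = 0.134 to 0.815). EpiSC samples also had the highest summed endoderm markers (219 to 234, against 92.1 to 115 in AFSC samples), most of it *Foxa2*. The part of endoderm cells in the *Cyp26a1* level was not tested.

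Counting the 9 genes by comparison, 2 were called in ASCs against ESCs (adjusted p below 0.05 and at least 2-fold), *Rarb* and *Crabp1*, both higher, where 25.8% of all 16901 genes tested were called, 18.5% higher and 7.26% lower. Without ASC replicate 1, ESC replicate 2 or ESC replicate 3 this count was 4, since *Rarg* and either *Dhrs3* or *Cyp26a1* then passed 2-fold with an adjusted p below 0.05. In ESC-ASCs against ESCs 4 were called, *Crabp1* and *Crabp2* higher and *Rdh10* and *Dhrs3* lower (36.4% of all genes, 19.3% higher and 17.1% lower). In EpiLCs against ESCs 7 were called, all higher except *Aldh1a2* (34.0% of all genes, with 15.9% lower and the rest higher), and in EpiSCs against ESCs 5, again all higher except *Aldh1a2* (41.0%, 19.0% higher and 22.0% lower). These 4 comparisons share the ESC samples, whose replicate 1 was the shallowest library of the series. In ASCs against AFSCs 5 were called, *Crabp1* and *Aldh1a2* higher and *Crabp2*, *Rdh10* and *Dhrs3* lower (39.4%, 22.7% higher and 16.7% lower). In EpiSCs against EpiLCs 6 were called, *Rdh10*, *Dhrs3* and *Cyp26a1* higher and *Rarg*, *Crabp1* and *Crabp2* lower (28.6%, 11.9% higher and 16.7% lower). The minimum count let *Cyp26a1* in through its EpiSC samples alone and *Rarb* through its EpiLC and EpiSC samples. Their calls as higher in those states are therefore not independent of that filter.

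AFSCs and EpiSCs, the primed states, differed in *Rdh10*, higher in AFSCs, and *Cyp26a1*, higher in EpiSCs, which made 2 of the 9 genes (20.8% of all genes, 12.6% higher and 8.19% lower in AFSCs). Here too the *Cyp26a1* call is not independent of the filter. The *Rdh10* call was lost without AFSC replicate 1 or 3, EpiSC replicate 2 or 3, EpiLC replicate 1 or ESC-ASC replicate 2, at log2 fold changes of 0.77 to 0.99. ESC-ASCs and ASCs, grown in 1 medium, differed in 3, *Crabp1* and *Crabp2* higher and *Rarb* lower in ESC-ASCs (24.5%, 8.04% higher and 16.5% lower). The share of the 9 genes called was below or near that of all genes in ASCs against ESCs and in AFSCs against EpiSCs. For a list of 9 genes it was also near in ESC-ASCs against ASCs (33.3%, with 24.5% of all genes). The same holds for ESC-ASCs against ESCs (44.4%, with 36.4% of all genes). The median log2 fold change of the 9 genes was 1.56 in EpiLCs against ESCs and 1.0 in EpiSCs against ESCs, where that of all genes was 0.06 and -0.04. In the other 6 comparisons it lay between -0.52 and 0.41. All 9 differed among the 6 states (edgeR F test over all groups, adjusted p of 0.000517 for *Rara* and less for the others), as did 94.4% of all genes. The mean level was highest in EpiSCs for *Rara*, *Rarb*, *Dhrs3* and *Cyp26a1*, in EpiLCs for *Rarg* and *Crabp2*, in AFSCs for *Rdh10*, in ESC-ASCs for *Crabp1*, in ESCs for *Aldh1a2* and in ASCs for none.

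**Figure D3:**
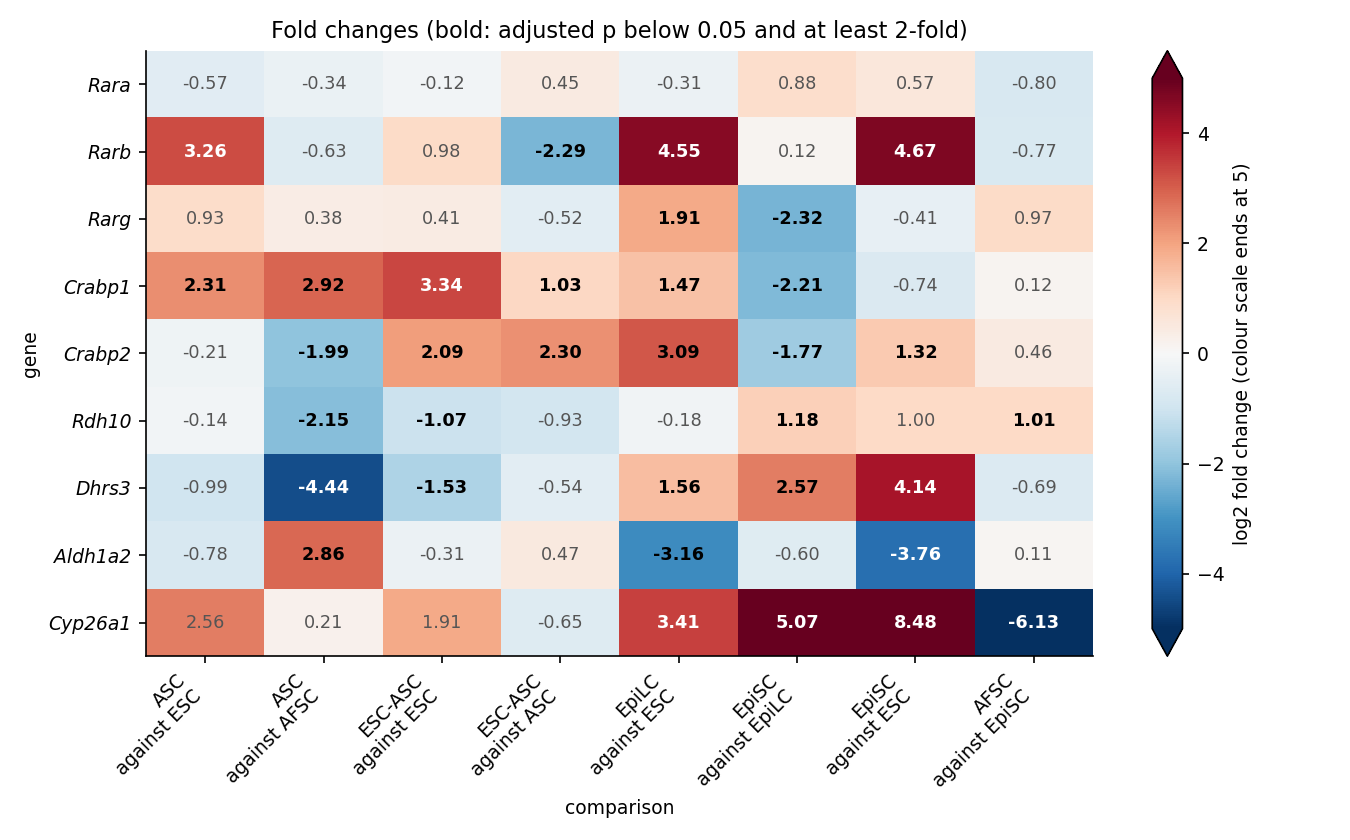
Fitted log2 fold changes (numbers and colour) of the 9 genes (rows) in the 8 comparisons (columns), bold where called. *Aldh1a2* falls and *Dhrs3* rises in EpiLC and EpiSC against ESC. The values of *Rarb* and *Cyp26a1* against ESC rest on 1 ESC count and depend on the prior count of the fit.

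The study grew cells from different starts in ABCL, and the change in ABCL can be set side by side for them: ASCs against AFSCs, and ESC-ASCs against ESCs. The pairs differ in more than the start. ASCs grew out of selected GFP-positive colonies, the line behind each library is not known, and the ESC-ASC libraries were the deepest. The start cannot be told apart from the selection, the lines or whatever else set the ESC-ASC libraries apart. The difference between the changes in ABCL was tested in the same edgeR fit, and 4 of the 9 genes passed (44.4%, below the 58.5% of all genes that did). For *Crabp2* the changes had opposite signs, -1.99 from AFSCs and 2.09 from ESCs, a difference of -4.08 ± 0.38 SE (adjusted p = 2.31e-08). *Dhrs3* fell from both starts, with log2 fold changes of -4.44 and -1.53 (difference -2.90 ± 0.45 SE, adjusted p = 1.83e-05). *Rdh10* also fell from both, with log2 fold changes of -2.15 and -1.07 (difference -1.07 ± 0.34 SE, adjusted p = 0.0118). *Aldh1a2* rose by 2.86 from AFSCs, while its change from ESCs was -0.31 and not significant (difference 3.17 ± 0.45 SE, adjusted p = 6.99e-06).

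*Crabp1* rose from both starts, by 2.92 and 3.34, with a difference of -0.42 ± 0.38 SE that did not pass the test (adjusted p = 0.363). For *Rara*, *Rarg*, *Rarb* and *Cyp26a1* the differences, of -0.22 ± 0.29, -0.04 ± 0.27, -1.61 ± 1.13 and -1.70 ± 1.31 SE, did not pass either, the last pair with the widest errors. By its definition, the difference between the changes is the difference between the ABCL states less that between their starting states. ASCs and ESC-ASCs held *Aldh1a2* at 17 ± 1.61 and 23.5 ± 1.76 per kb (SD, n = 3), a difference of 0.47 ± 0.25 SE on the log2 scale that did not pass the test (adjusted p = 0.12). They held *Dhrs3* at 3.17 ± 0.904 and 2.16 ± 0.0926 per kb (difference -0.54 ± 0.36 SE, adjusted p = 0.224). AFSCs and ESCs, the starting states, were 12.5-fold apart in *Aldh1a2* and 10.9-fold apart in *Dhrs3* (39.5% of all genes were called between them, 19.9% higher and 19.6% lower in AFSCs). The log2 fold changes of AFSC over ESC were -3.65 for *Aldh1a2* and 3.44 for *Dhrs3*. For both genes the difference in change was thus mostly the gap between the starting states. For *Crabp2* the ABCL states ended 4.92-fold apart, as given above.

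**Figure D4:**
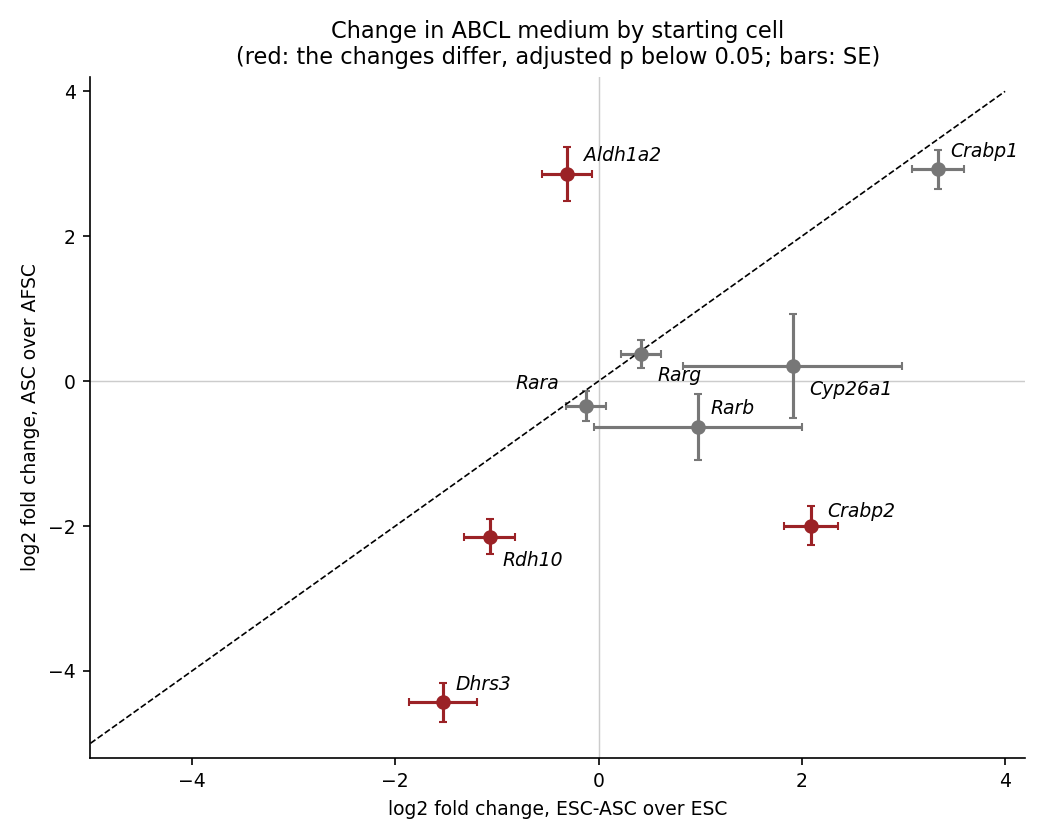
Log2 fold change of ESC-ASC over ESC (horizontal axis) and of ASC over AFSC (vertical axis) for the 9 genes, with standard errors as bars. The dashed line marks equal change, and red points are genes whose 2 changes differ (adjusted p below 0.05): *Aldh1a2* lies above the line and *Crabp2*, *Dhrs3* and *Rdh10* below it.

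Another 31 genes of retinoid handling, binding, receptors, cofactors and response were listed as the surroundings of the 9, and 23 of them were tested. Of these, 11 were called in ASCs against ESCs (9 higher), 12 in ESC-ASCs against ESCs (6 higher), 14 in EpiLCs against ESCs (7 higher) and 14 in EpiSCs against ESCs (9 higher). In ASCs against AFSCs 14 were called (9 higher), in EpiSCs against EpiLCs 14 (11 higher), in ESC-ASCs against ASCs 6 (none higher) and in AFSCs against EpiSCs 10 (2 higher). In the same order, the shares of all genes called were 25.8%, 36.4%, 34.0%, 41.0%, 39.4%, 28.6%, 24.5% and 20.8%.

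Upstream of the 9 genes, *Rbp4*, the retinol carrier of plasma, was at 0 to 0.86 in ESC and 11 to 14.1 in ASC samples. *Stra6*, a membrane receptor for that carrier, was 11.1-fold lower in ESC-ASCs than in ASCs, at 0.259 or less against 0.941 to 2.04. This fold rests on few counts, 1, 0 and 3 in ESC-ASC and 11, 8 and 5 in ASC samples. *Aldh1a3*, a further retinal dehydrogenase, was highest in AFSCs (12 to 17.2) and so did not follow *Aldh1a2*. It was 1 of the 2 genes higher in AFSCs than in EpiSCs, with *Gbx2*.

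Beside the receptors and binding proteins, *Rxrg*, an RXR partner of the RARs, was listed at 0 in all ESC samples and at 12.6 to 15.8 in EpiLC, 19.3 to 24.2 in AFSC and 70.2 to 82.3 in EpiSC samples, in the same order of these states as *Dhrs3*. *Rxra* was 57.7 to 66.0 in ASC and 20.5 to 26.6 in ESC-ASC samples (log2 fold change of ESC-ASC over ASC -1.43, adjusted p = 0.000256). *Fabp5*, which can also carry retinoic acid, was 1.08 lower on the log2 scale in ESC-ASCs than in ESCs and 2.98 higher in EpiSCs. Of the other CYP26 genes, *Cyp26b1* and *Cyp26c1* were too low to test, at most 1.21 per kb for the first in any sample, while the second reached 3.53 to 9.01 in EpiSC samples and at most 1.88 elsewhere.

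Among 8 genes known to respond to retinoic acid, 7 were tested, and how they moved depended on the comparison. In ASCs against AFSCs 5 were called, all higher (39.4% of all genes, 22.7% higher). In ASCs against ESCs 5 were called, 4 of them higher (25.8% of all genes, 18.5% higher). In ESC-ASCs 4 were lower than in ASCs and none higher (16.5% and 8.04% of all genes). In ESC-ASCs against ESCs 2 were higher and 3 lower (19.3% and 17.1% of all genes). In EpiLCs against ESCs 1 was higher and 4 were lower (34.0% of all genes were called, 15.9% lower and the rest higher). *Stra8*, a germ cell gene, was at 68.8 to 96.1 in ASC, 21.2 to 25.5 in ESC-ASC and 0 to 0.747 in AFSC samples. *Cdx1*, a posterior patterning gene, was at 245 to 460.5 in ASC, 35.2 to 50.6 in ESC-ASC and 135 to 142 in ESC samples and at 0 in all AFSC samples. *Meis2* was 35.3 to 41.5 in ESC samples and 0.162 or less in ESC-ASC samples, and *Meis1* was highest in EpiSC samples (6.78 to 7.98). *Tgm2* rose in both ABCL states against ESCs (23.6 to 32.0 against 3.63 to 5.56). In EpiSCs, where *Cyp26a1* and *Dhrs3* were highest, 1 of these 7 was higher than in ESCs (*Meis1*) and 3 were lower (*Gbx2*, *Stra8*, *Cdx1*). Of all genes, 19.0% were higher and 22.0% lower in EpiSCs than in ESCs.

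For each member the genes with the most similar pattern over the 18 samples were found by Pearson r of log2 levels. *Dhrs3* had the closest, *Sulf1* (r = 0.98), followed by *Aldh1a2* with *Zfp710* (0.98), *Crabp1* with *Gm2694* (0.97) and *Rarg* with *Mrc1* (0.96). *Rdh10* was nearest to *Tmem17* (0.96), *Rarb* to *Dlk1* (0.95), *Crabp2* to *Uchl5* (0.95), *Cyp26a1* to *Cdon* (0.91) and *Rara* to *Dpf2* (0.88). No member was among the 3 nearest genes of another member. These are the highest of 16901 coefficients and describe the shape of the pattern alone.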

How the data were processed

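RNA-seq of 18 samples in 6 groups was used. Unnormalized gene-level fragment counts were deposited. To make them, the authors aligned paired reads with TopHat2 to GRCm38 and ran featureCounts 1.5.0-p1 on the exons of Ensembl release 86. Their counting required both ends to map, kept fragments that map to several places, counted a fragment for each gene it overlaps by at least 10 bases and ignored strand. No exon of the 9 genes overlaps another gene. Groups were taken from the sample labels. The deposited tables carry names in which AFSC samples are called ASC, and the labels were followed.

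Counts were tested with edgeR 4.0.16 in R 4.3.3: TMM normalization, 1 quasi-likelihood fit of all 18 samples with robust estimation (common dispersion 0.0283), F tests and Benjamini-Hochberg adjustment over 16901 genes (minimum: 10 counts in 3 samples). A gene was called at an adjusted p below 0.05 and at least 2-fold. SE is the log2 fold change divided by the square root of F. For levels, counts were scaled by size factors (DESeq2 1.42.0) and by exonic kb, and log2 levels used a pseudocount of 0.1. Intervals of ratios to 1 to 3 counts are exact binomial at 95% and cover counting error only. Gene names were matched for 35514 of 35773 identifiers. Promoter windows are those of RefSeq on GRCm38.p6. On simulated counts (16281 genes, ASC against ESC) recovery was scored by adjusted p below 0.05 alone, without the 2-fold rule. The test then recovered 84% of 2-fold and 100% of 4-fold changes, and 3.66% of the genes that passed were false. The changed genes were drawn from the better-counted ones, so these figures do not cover genes with as few counts as *Rarb*.

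The 9 genes and the lists of other genes were chosen with earlier results of these data known. Named were the 9 genes, the 2 to 4 largest called changes of the lists per comparison with every gene of a list count of 5 or fewer (given only where a result turns on them), and the 3 genes nearest in pattern. *Cyp26c1*, *Cyp26b1*, *Bco1*, *Rxra*, *Fabp5* and *Aldh1a3* are given for their role, outside the first of these rules. The values of 1 listed gene are not reported here. Where nothing says that replicates came from separate lines, p-values measure the spread between these cultures. Alternatives were other scalings, filters, call rules, DESeq2, a replicate block, fits of only the groups compared, thinned ESC-ASC counts and leaving out each sample.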

Additional observations from a re-analysis of the deposited data

Results flagged for a closer look

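For 4 of the 9 genes (44.4%) the change in ABCL differed between the starts, as tested by the interaction in the edgeR fit. This share was below the 58.5% of all genes that passed. For *Aldh1a2* and *Dhrs3* the difference was mostly the gap between AFSCs and ESCs. The start cannot be told apart from the colony selection of the ASCs or from the lines used. The log2 fold change of ASC over AFSC minus that of ESC-ASC over ESC was -4.08 for *Crabp2*, -2.90 for *Dhrs3*, -1.07 for *Rdh10* and 3.17 for *Aldh1a2*. The same 4 genes passed whichever of the 18 samples was left out. ESC-ASC samples had lower fibroblast markers than ESC samples (1.27 to 1.84 against 33.8 to 92.8 in summed level), while ASC and AFSC samples were at 48.1 to 81.2 and 20.9 to 39.4 and the ASC excess was in *Col1a1* (mean 56.4 against 21.02 in AFSC), since *Col1a2* (2.44 against 7.63) and *Col3a1* (0.586 against 2.20) were lower in ASC samples. The part of this in the differences was not tested. Thinning the ESC-ASC counts to 7785262 left the 4 calls in place.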

How the results depend on the processing

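Of 2057 alternative values for 81 fold changes of the 9 genes, 2003 kept direction and side of the threshold, 27 newly passed it, 14 no longer did and 13 turned sign. The sign turned only in changes that were not called, with 1 sample left out: -0.42 to 0.05 for *Rara* and -0.17 to 0.18 for *Rarg* in the change by starting cell, -0.0345 to 0.27 for *Rarb* in EpiSC against EpiLC, -0.37 to 0.71 for *Cyp26a1* in ASC against AFSC, -0.0715 to 0.37 for *Crabp1* and -0.50 to 0.54 for *Aldh1a2* in AFSC against EpiSC, and, against ESC, -0.51 to 0.12 for *Crabp2* in ASC, -0.40 to 0.0558 for *Rdh10* in ASC and -0.44 to 0.0135 for *Rdh10* in EpiLC. The single values were 0.0482 for *Rara* and 0.127, 0.118 and 0.178 for *Rarg*.

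Counts of called members moved as follows, the cause not being tested beyond the rule applied. By adjusted p alone they were 6 in ASC against ESC, 5 in ESC-ASC against ASC, 8 in EpiSC against ESC and 5 in AFSC against EpiSC (50.3%, 50.7%, 61.2% and 39.4% of all genes). At 4-fold they were 2 in ESC-ASC against ESC, 4 in EpiLC against ESC and 1 in AFSC against EpiSC (16.6%, 17.7% and 9.51% of all genes). Upper quartile scaling gave 4 in ASC against ESC (26.2% of all genes), and it moved the median log2 fold change of all genes against ESC by 0.11 to 0.13. In AFSC against EpiSC, RLE size factors, DESeq2 and the replicate block each gave 1 (*Cyp26a1*, with *Rdh10* at 0.99), and a minimum in 6 samples gave 1, since *Cyp26a1* was then not tested (19.9% to 21.1% of all genes). With 1 sample left out the counts were 2 to 4 in ASC against ESC and 0 to 2 in AFSC against EpiSC. For the other retinoid genes, adjusted p alone gave 17 in ASC against ESC and 12 in ESC-ASC against ASC, and 4-fold gave 4, 8, 6, 3, 6 and 4 in ASC against ESC, ASC against AFSC, ESC-ASC against ESC, ESC-ASC against ASC, EpiLC against ESC and AFSC against EpiSC (11.4%, 19.4%, 16.6%, 9.08%, 17.7% and 9.51% of all genes).

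Without division by length, receptor shares were 47.4% (*Rara*) and 52.4% (*Rarg*) in ESC-ASC, 0.972% (*Rarb*) in EpiLC and 71.0% (*Rara*) and 1.85% (*Rarb*) in EpiSC samples. By TPM *Rara* kept 2 of 6 places, *Crabp2* and *Rdh10* 4, and the other genes 6. Replicate numbers are shared by all groups, but same-numbered samples deviated together only weakly (mean r 0.0539 over 45 pairs, -0.114 to 0.332; 6 of 18 samples correlated best with their own number), so the replicate block was kept as an alternative. *Rarg*, lowest in replicate 1 of all 6 states, changed no call under the block. Depth limits *Rarb* and *Cyp26a1* outside EpiSC.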
